A study of Mus musculus with 20 samples.

Results

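Red cell membrane and skeleton genes were followed in WT and Nsun6-KO mice by 8 symbols, Slc4a1, Epb42, Ank1, Sptb, Epb41, Rhag, Rhd, and Kel. Each symbol had 1 row among the 55401 genes of the count table. RNA-seq was performed on the spleen, kidney, heart, liver, and small intestine of female mice aged 8 weeks, with 2 WT and 2 KO libraries in each organ and 20 libraries in all. The KO animals carried a CRISPR/Cas9 deletion of exons 3 and 4 of Nsun6, made in fertilized eggs of C57BL/6J mice and bred from heterozygous parents, and the WT animals did not carry it. The deletion is carried in the germline and is not limited to a cell type, and each organ was frozen and ground whole, so that a library holds every cell type of the organ. Perfusion to remove blood is not stated in the methods. The study calls the replicates biological, and whether organs of one number came from one animal is not stated in the sources used here.

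The red cell keeps its shape through a spectrin lattice under the membrane, which hangs on anion exchanger 1 (band 3, Slc4a1) through ankyrin (Ank1) and protein 4.2 (Epb42), and on glycophorin C through protein 4.1 (Epb41). The Rh proteins (Rhag, Rhd) sit in the same membrane complexes, and Kel carries the Kell blood group. The mouse spleen makes red cells throughout adult life, whereas the acid-secreting intercalated cells of the kidney collecting duct also use Slc4a1, from a shorter transcript, and muscle uses its own forms of ankyrin and spectrin.

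Coordinates are those of GRCm38 in the count table. Slc4a1 (ENSMUSG00000006574) lies on chromosome 11 from 102348824 to 102366203 on the minus strand, with 4891 bp of merged exons. Epb42 (ENSMUSG00000023216, chromosome 2, 121017891 to 121037072, minus) has 5417 bp, Ank1 (ENSMUSG00000031543, chromosome 8, 22974844 to 23150497, plus) has 13527 bp, and Sptb (ENSMUSG00000021061, chromosome 12, 76580488 to 76710547, minus) has 12147 bp. Epb41 (ENSMUSG00000028906, chromosome 4, 131923413 to 132075321, minus) has 16386 bp. The Rh and Kell genes are shorter, with 2339 bp for Rhag (ENSMUSG00000023926, chromosome 17, 40811126 to 40840754, plus), 1594 bp for Rhd (ENSMUSG00000028825, chromosome 4, 134864536 to 134896172, plus), and 2773 bp for Kel (ENSMUSG00000029866, chromosome 6, 41686330 to 41704339, minus). Exons of another gene cover 6.37% of the exon bases of Ank1 (Gm15816), 1.42% of Epb41 (Gm13063 and Gm10300), and 1 base of Sptb (Plekhg3), so that reads there could be lost or shared.

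The 250 bases upstream of each RefSeq start were searched because GATA1, the main transcription factor of red cell precursors, binds WGATAR sites, which were searched on both strands as AGATAA or AGATAG and as TGATAA or TGATAG. In these windows, 26.5% of 32851 promoters of the RefSeq table (GRCm38.p6) held at least 1 match. The table matched 6 of the 8 members by symbol, of which 5 (Epb42, Epb41, Rhag, Rhd, and Kel) held a match, in 5 of their 8 listed starts. Slc4a1 and Ank1 were not matched. The members that were nearly limited to the spleen (Epb42, Rhag, and Kel) and Rhd are printed 5′ to 3′ on the strand of the gene, up to the outermost annotated start of the gene, with WGATAR matches in capitals. The stretches are chr2:121037073-121037127 for Epb42, chr17:40810899-40811125 for Rhag, chr4:134864286-134864535 for Rhd, and chr6:41704340-41704575 for Kel.
Epb42: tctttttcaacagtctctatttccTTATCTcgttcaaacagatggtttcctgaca
Rhag: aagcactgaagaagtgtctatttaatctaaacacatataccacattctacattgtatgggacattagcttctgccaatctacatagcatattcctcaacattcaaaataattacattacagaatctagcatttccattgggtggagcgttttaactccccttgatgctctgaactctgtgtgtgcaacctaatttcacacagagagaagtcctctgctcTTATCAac
Rhd: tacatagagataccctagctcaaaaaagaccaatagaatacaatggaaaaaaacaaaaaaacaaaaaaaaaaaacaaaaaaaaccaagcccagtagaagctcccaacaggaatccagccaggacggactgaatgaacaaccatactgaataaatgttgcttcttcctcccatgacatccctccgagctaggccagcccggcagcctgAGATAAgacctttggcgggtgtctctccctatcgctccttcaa
Kel: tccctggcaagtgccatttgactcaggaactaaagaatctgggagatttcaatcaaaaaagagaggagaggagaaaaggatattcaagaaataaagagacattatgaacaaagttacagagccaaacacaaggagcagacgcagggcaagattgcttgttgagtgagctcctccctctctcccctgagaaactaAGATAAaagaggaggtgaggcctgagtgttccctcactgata
The match began 31 bases before the RefSeq start in Rhag, 43 bases before it in Rhd, 56 bases before it in Kel, and 226 bases before it in Epb42. Kel had another match 19 bases before the start, which ran past the end of the stretch shown. A CACCC-type motif, CCNCNCCC on either strand, was present in Sptb and Epb41, 2 of the 6 members, against 45.9% of all promoters. The 2 of 6 counts genes, with 3 listed starts for Epb41, whereas the percentage counts promoters, so that they are not like for like. These matches are letters in a window and were not tested for binding.

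Total counts ranged from 15897446 to 44508197 per library. The organ labels were checked with lists of cell type genes. All 8 B cell genes had their highest mean TPM (counts divided by exon length and scaled to 1 common total in every library) in the spleen, 6 of 6 proximal tubule genes in the kidney, 8 of 8 heart muscle genes in the heart, 7 of 7 intestinal epithelium genes in the small intestine, and 9 of 10 hepatocyte genes in the liver. Nsun6 itself had 317 and 167 counts in WT spleen and 177 and 282 in KO spleen, but these counts also cover the exons that were not deleted, and so they do not check the genotype.
Some libraries stood apart. Spleen WT replicate 2 carried liver transcripts, where the median level of 10 hepatocyte genes was 3.28% of that in the liver, against 0.0128% in WT replicate 1 and 0.128% and 0.152% in the KO libraries. Heart WT replicate 2 held B cell genes at a median of 0.837% of their spleen level, against at most 0.126% in the other heart libraries. Spleen KO replicate 1 held more proximal tubule transcripts, with a summed TPM of 185 over the list against 3.16, 20.8, and 3.44 in the other spleen libraries. In the small intestine, WT replicate 1 held B cell genes at a median of 10.1% of their spleen level (at most 1.13% in the others), and KO replicate 1 had a summed TPM of 498 for heart muscle genes (at most 12.1 in the others). Of all kidney genes, edgeR called 16.1% between KO and WT when WT replicate 1 was left out, so that replicate 2 stood alone for WT, and 2.37% when WT replicate 2 was left out. The part of these transcripts in the values of the members was not tested. No member was called in the small intestine with any of its libraries left out.

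In the spleen, all 8 members were higher in both KO libraries than in both WT libraries, by 1.85-fold to 3.19-fold. Slc4a1, Epb42, and Rhd rose in KO, called in edgeR's quasi-likelihood test (adjusted p below 0.1, more than a 2-fold change), whereas the other 5 members did not reach this adjusted p. Of 18834 genes tested, 17% had both KO libraries above both WT libraries, and 0.218% were called higher (41 genes). The median log2 fold change of the 8 members was 1.5, beside 0.0072 over all genes tested, and 7 members had a log2 fold change over 1, as did 3.58% of all genes. In bulk tissue, fewer cells of a type and less RNA per cell cannot be told apart, and the same holds for more.

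The anion exchanger Slc4a1, the most abundant membrane protein of the red cell, had 317 CPM (counts scaled to 1 common library size, after TMM normalization) and 359 CPM in WT and 1013 CPM and 990 CPM in KO spleen. The log2 fold change of Slc4a1 was 1.57 with a standard error (SE) of 0.16 (edgeR adjusted p = 0.0656). Epb42, which ties band 3 to ankyrin, had 58.5 CPM and 69.5 CPM in WT and 185 CPM and 223 CPM in KO. Epb42 thus had the largest log2 fold change of the members, 1.67 ± 0.18 (SE, edgeR adjusted p = 0.0656).
The groups of both genes lay far apart compared with the distance between replicates. In any fit of 1 organ with 1 library left out, 1 genotype kept 1 library. The spread then came from the other genotype alone, so that such fits are a description. Both genes were called with each single library left out, except KO replicate 2. Without it, Slc4a1 was at 1.59 (edgeR adjusted p = 0.117) and Epb42 at 1.54 (edgeR adjusted p = 0.118).

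The spectrin anchor and lattice genes had more spread between the WT libraries. Ank1 (ankyrin 1) had 20.4 CPM and 34.5 CPM in WT and 76.5 CPM and 63.7 CPM in KO, for a log2 fold change of 1.35 ± 0.27 (SE, edgeR adjusted p = 0.190). Sptb (erythroid beta spectrin) had 35 CPM and 56.7 CPM in WT and 142 CPM and 107 CPM in KO, for a log2 fold change of 1.44 ± 0.27 (SE, edgeR adjusted p = 0.170). WT replicate 2, the library with liver transcripts, was the higher WT library for both genes, and neither was called. The liver itself had a mean of 0.00698 TPM of Ank1 and 0.204 TPM of Sptb, against 8.94 TPM and 17.3 TPM in the spleen. The part of liver transcripts in these values was not tested. Epb41 (protein 4.1), which joins spectrin to actin and is used by many cell types, had 144 CPM and 152 CPM in WT and 251 CPM and 297 CPM in KO. Its WT libraries lay close together, and its log2 fold change of 0.89 ± 0.16 (SE, edgeR adjusted p = 0.145) was the smallest of the 8 members and the only one under the fold threshold.

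Of the Rh and Kell genes, only Rhd was called. Rhd, the Rh blood group protein, had 53.4 CPM and 82.4 CPM in WT and 224 CPM and 199 CPM in KO, for a log2 fold change of 1.64 ± 0.23 (SE, edgeR adjusted p = 0.0948). Rhag, the ammonia channel that carries the Rh proteins to the membrane, had 50.6 CPM and 87.2 CPM in WT and 206 CPM and 202 CPM in KO, for a log2 fold change of 1.57 ± 0.26 (SE, edgeR adjusted p = 0.132). Kel, a membrane endopeptidase, had 80.3 CPM and 127 CPM in WT and 317 CPM and 239 CPM in KO, for a log2 fold change of 1.42 ± 0.26 (SE, edgeR adjusted p = 0.163). The KO libraries of Rhag lay within a few CPM of each other, whereas WT replicate 2 was again above WT replicate 1 in all of these genes. The call of Rhd was lost without KO replicate 1 (log2 fold change 1.52, edgeR adjusted p = 0.308) and without KO replicate 2 (1.73, edgeR adjusted p = 0.414).

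**Figure D1:**
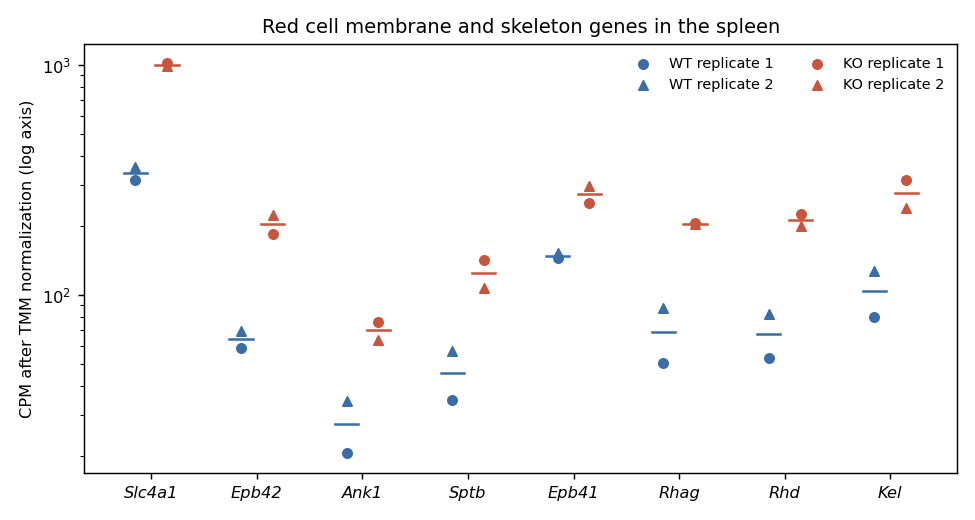
CPM after TMM normalization (vertical log axis) of the 8 genes in each spleen library, with horizontal lines for the group means of 2 libraries. Both KO libraries lie above both WT libraries for every gene, and WT replicate 2 lies above WT replicate 1.

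How many members were called depended on the library left out and on the tool. With 1 library left out, 1 genotype had 1 library, so that these counts are a description and not a test of stability. Without WT replicate 2, 7 of the 8 members were called, all but Epb41, with log2 fold changes such as 2.01 for Rhag, 1.82 for Sptb, and 1.77 for Ank1, in a fit that called 1.32% of all genes higher. Without WT replicate 1 it was 4 members (0.351% of all genes), and without KO replicate 1, the library with proximal tubule transcripts, it was 2, Slc4a1 and Epb42 (0.1%). Without KO replicate 2 none was called in edgeR (0%), with log2 fold changes such as 1.59 for Rhag, 1.64 for Sptb, and 0.77 for Epb41. DESeq2 called 7 members, all but Epb41, where it called 1.29% of all genes higher. The same 7 members had an edgeR adjusted p between 0.0656 and 0.190. In edgeR, 7 members were called with no filter on low counts (0.867% of all genes) and 6 with a minimum of 10 counts (0.622%). No fold change of a member in the spleen changed sign under any alternative run.

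Per length, the members kept nearly 1 order in all spleen libraries. Slc4a1 had the highest level, 339 ± 178 TPM (SD over 2 WT and 2 KO libraries, n = 4), followed by Rhd with 216 ± 122, Kel with 171 ± 88.8, Rhag with 144 ± 77.5, Epb42 with 61.0 ± 34.6, Epb41 with 32.2 ± 9.53, Sptb with 17.3 ± 9.14, and Ank1 with 8.94 ± 4.34. These SDs contain the difference between WT and KO, and the only change of order was in KO replicate 2, where Rhag and Kel had 206 TPM and 205 TPM. Long merged exons lower the TPM of a gene whose main transcript is shorter, and the length of the main transcript was not used here.

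Other genes of the red cell membrane and skeleton, a list of 28 chosen by name, had mostly positive values. Of the 27 that were tested, 21 had a positive and 6 a negative log2 fold change, with a median of 0.64. None was called in edgeR, where 15 had an unadjusted p under 0.05, all positive, as had 969 of all 18834 genes in either direction, and DESeq2 called 8.
The largest value was that of Dmtn (dematin, an actin bundler), which had 37.7 CPM and 58.2 CPM in WT and 148 CPM and 117 CPM in KO spleen, for a log2 fold change of 1.47 ± 0.24 (SE, edgeR adjusted p = 0.129). Its groups did not overlap, and WT replicate 2 was again the higher WT library. Tmod1 (tropomodulin, which caps the actin of the lattice) was next, at 1.34, and DESeq2 called both. The lowest values were -0.30 for Tpm3 (a tropomyosin), -0.25 for Bcam (the Lutheran blood group), -0.19 for Add3 (gamma adducin), and -0.12 for Slc2a1 (a glucose transporter). The genes of the list with the highest spleen TPM were Bsg (basigin) with 440 TPM and a log2 fold change of 0.64, Aqp1 (the water channel) with 257 TPM and 1.25, and Cd47 (a signal against engulfment) with 201 TPM and 0.30. Tpm3 had 146 TPM, Cd55 (a complement regulator) 148 TPM with -0.06, Stom (stomatin) 126 TPM with 1.04, and Slc16a1 (a lactate carrier) 124 TPM with 0.74. Ermap (the Scianna blood group) had 107 TPM with 1.27, Gypc (glycophorin C, the anchor of protein 4.1) 107 TPM with 0.86, Add3 105 TPM, and Cd44 94.6 TPM with -0.12.

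**Figure D2:**
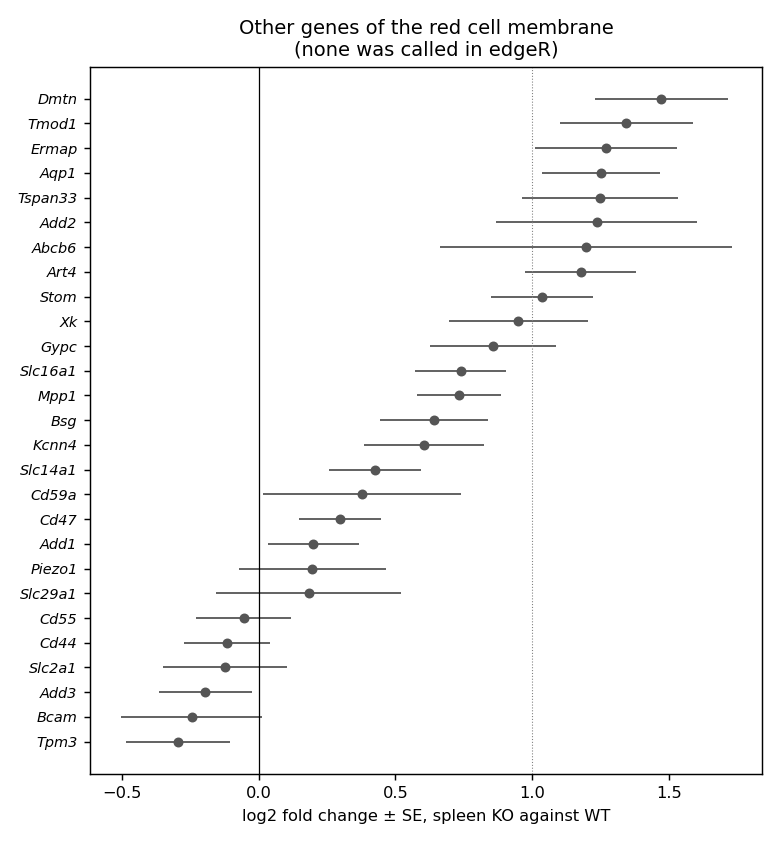
Log2 fold change with its standard error (horizontal axis), KO against WT spleen, for the 27 tested genes of the list, in order of size, with a dotted line at the fold threshold. Dmtn has the largest value, 21 genes lie above 0, and 6 lie below.

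No relative of the members that serves other cells was called. Of 15 tested genes of the anion exchanger, ankyrin, spectrin, protein 4.1, transglutaminase, and endopeptidase families, 4 had a positive and 11 a negative log2 fold change, with a median of -0.14. None was called in edgeR or DESeq2, and none had an unadjusted p under 0.05 in edgeR. The most abundant in the spleen were Sptbn1 (beta spectrin of other tissues), with 41.8 TPM and a log2 fold change of -0.14, Sptan1 (its alpha partner), with 32.9 TPM and -0.15, and Epb41l2, with 29.9 TPM and -0.15. The values ran from -0.55 for Ank3 (an ankyrin of nerve and epithelium) to 0.96 for Sptbn4 (a spectrin of nerve), which had a mean of 0.222 TPM. Sptb and Epb41 had 1.44 and 0.89 in the same fit.

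Red cell precursor genes outside the membrane had positive values as well. All 14 tested genes for erythroid factors, receptors, and heme had a positive log2 fold change, with a median of 1.32, and 4 were called in edgeR (11 in DESeq2), Hemgn (hemogen) with 1.85, Trim10 with 1.78, Alas2 (the first enzyme of heme synthesis) with 1.34, and Fech (the last) with 1.30. Hemgn, Trim10, and Alas2 are red cell precursor genes, whereas Fech is used more widely. The summed TPM of this list was 1333 and 1934 in WT and 4093 and 4106 in KO, and Car2 (carbonic anhydrase 2) was its most abundant gene. All 4 globin genes had positive values, with a median of 1.05 and an unadjusted p under 0.05 in edgeR, and none was called in edgeR and 2 in DESeq2. All 10 cell division genes had positive values, with a median of 1.05, and Mki67 was called in edgeR with 1.4 (5 genes in DESeq2).
The median of the 8 members, 1.5, thus lay near that of the erythroid list and above those of the cell division and globin lists. Single values overlapped, with Mki67 above Ank1 (1.35) and Hbb-bs (1.24) above Epb41 (0.89), and the order of the medians was not tested. Over the other cell types, the median was -0.18 for 8 B cell genes, 0.11 for 8 T cell genes, -0.26 for 10 myeloid genes, and -0.51 for 8 megakaryocyte and platelet genes. No gene of these lists was called in edgeR or DESeq2, and 1, 0, 1, and 2 genes, in that order, had an unadjusted p under 0.05 in edgeR. The 10 hepatocyte genes, with a median of -3.53, were all lower in KO, with the liver transcripts in WT replicate 2, and none had an unadjusted p under 0.05 in edgeR or a call in DESeq2. For exocrine pancreas, skeletal muscle, heart muscle, proximal tubule, intercalated cells, and intestinal epithelium, 1, 5, 5, 3, 3, and 5 genes passed the filter, none was called in edgeR, 5 had an unadjusted p under 0.05 there, and DESeq2 called 1, Lrp2 (a proximal tubule gene). The summed B cell TPM was 5807 and 4770 in WT and 4400 and 3406 in KO, with Cd79b as the most abundant gene and no gene at 0. The part of other cell types in the values of the members was not tested.

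In the other organs, no member was called in KO against WT by edgeR or DESeq2. Of 16 tests in edgeR (4 members in the kidney, 6 in the heart, 2 in the liver, and 4 in the small intestine passed the filter), 1 had an unadjusted p under 0.05, and of 29 in DESeq2 also 1, in both cases Slc4a1 in the heart, from few counts. Over all genes, edgeR called 0% in the kidney, the heart, and the small intestine and 0.0509% in the liver. In these organs 112, 117, 422, and 739 genes had an unadjusted p under 0.05 in edgeR, and DESeq2 called 0, 3, 51, and 53.
The other membrane genes of the list had medians of 0.22 in the kidney, 0.01 in the heart, 0.04 in the liver, and 0.09 in the small intestine, with 0, 0, 3, and 1 genes at an unadjusted p under 0.05 in edgeR and none called by edgeR or DESeq2.
In the WT kidney, Slc4a1 had 26.9 CPM and 18.3 CPM, and in the KO kidney 31.5 CPM and 22.3 CPM, so that the genotypes overlapped, for a log2 fold change of 0.25 ± 0.40 (SE). Epb42 had 0.836 CPM and 0.930 CPM in WT and 1.14 CPM and 1.4 CPM in KO kidney, from 20 to 35 counts, for a log2 fold change of 0.52 ± 0.60 (SE). Sptb in the kidney rested on WT replicate 2, with 11 counts against 101 to 142 in the other libraries. Without WT replicate 1, Sptb was called there (log2 fold change 2.97, edgeR adjusted p = 0.00358), in the fit that called 16.1% of all genes, and leaving out WT replicate 2 gave -0.20, against 0.61 ± 0.99 (SE) with all libraries. Slc4a1 in the kidney was at 0.55 without WT replicate 1 and at 0.03 without WT replicate 2, with no call.

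In the WT heart, Slc4a1 had 10 and 97 counts, and in the KO heart 4 and 11, for a log2 fold change of -2.61 ± 0.91 (SE, edgeR adjusted p = 1.0). Slc4a1 passed the filter in the heart only through its WT libraries, so that a difference was needed for it to be tested, and with a minimum of 10 counts in every library it was not tested and none of the 4 members left had an unadjusted p under 0.05 in edgeR. The value rested on WT replicate 2, without which it was -1.17 ± 1.62 (SE). This library also held all counts of Rhag (9) and Kel (8) in the heart, whereas its 14 counts of Epb42 lay beside 16 in KO replicate 2. The members with higher heart levels, Ank1, Rhd, Sptb, and Epb41, did not differ by genotype beyond their spread. The log2 fold changes were 0.05 ± 0.30 for Ank1, 0.08 ± 0.44 for Rhd, and 0.19 ± 0.47 for Sptb (SE). Epb41 had 107 ± 27.4 CPM in WT and 136 ± 75.4 CPM in KO heart (SD, n = 2).

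Whether the KO effect of the spleen differed from that of another organ was tested with interaction terms in a fit of all 20 libraries. None of 32 tests of members passed in edgeR, where 0% of all genes was called against the kidney, the heart, the liver, or the small intestine, and 4 of the 32 had an unadjusted p under 0.05. Of all 23159 genes, 403, 374, 488, and 1113 had one against these organs, in that order. DESeq2 was not run for the interactions. For Slc4a1 the log2 fold change of the spleen minus that of the kidney was 1.25 ± 0.67 (SE, edgeR unadjusted p = 0.0844). Minus that of the heart it was 4.16 ± 0.77 (SE, edgeR unadjusted p = 0.000147, adjusted p = 1.0). In this fit, which takes its estimate of the spread from all organs, no member was called in the spleen by edgeR either (0% of all genes), although 3 had an unadjusted p under 0.05, as had 531 of all genes.

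**Figure D3:**
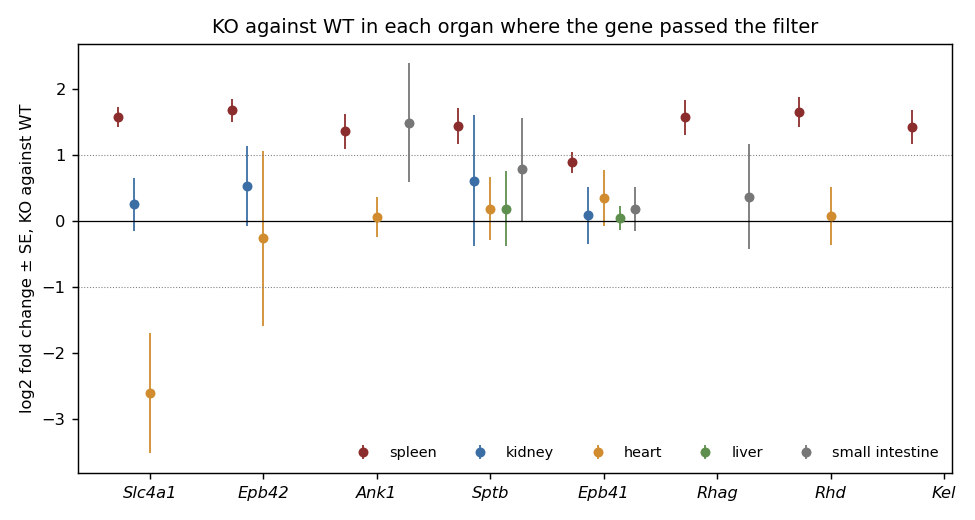
Log2 fold change with its standard error (vertical axis), KO against WT, of each gene in the organs where it passed the filter on low counts, with dotted lines at the fold threshold. The spleen values lie between 0.89 and 1.67 with short bars, and the other organs have values near 0 or wide bars, with Slc4a1 in the heart at -2.61.

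Across organs, the 8 genes fell into unlike patterns. In the fit of all 20 libraries, WT and KO pooled, 52 of 80 tests of a member between 2 organs were called. In edgeR, with the percent of all genes called in brackets, 7 members were called between spleen and kidney (50.5%), 6 between spleen and heart (52.6%), 7 between spleen and liver (52.2%), and 7 between spleen and small intestine (49.5%). Among the other organs, 6 were called between kidney and heart (38%), 3 between kidney and liver (34.7%), 4 between kidney and small intestine (45.7%), 3 between heart and liver (44.5%), 5 between heart and small intestine (53.5%), and 4 between liver and small intestine (46.3%). TMM over organs of unlike composition moved all genes against scaling to total counts, by a median of -1.19 on the log2 scale for spleen against liver, -0.67 for spleen against heart, -0.61 for spleen against small intestine, and -0.40 for spleen against kidney, so that TPM and edgeR differences are not on 1 scale.

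Rhag and Kel were nearly limited to the spleen. Rhag had 144 TPM there, against 0.654 ± 0.282 TPM in the small intestine, 0.242 ± 0.160 TPM in the kidney, and 0.0745 ± 0.149 TPM in the heart (SD, n = 4), and no count in the liver. Kel had 171 TPM in the spleen and at most 0.250 ± 0.334 TPM elsewhere, again with no count in the liver. With 3 counts over the 4 liver libraries as the floor, the spleen level in CPM, here scaled to total counts without TMM, was at least 6311-fold higher for Rhag and at least 8850-fold higher for Kel. The kidney trace of Rhag was below that of the small intestine (edgeR log2 difference -1.52 ± 0.61, SE, adjusted p = 0.0590), from 1 to 22 counts. This call of Rhag was lost without small intestine WT replicate 1 (-1.27), small intestine KO replicate 1 (-1.36), kidney WT replicate 1 (-1.13), or kidney KO replicate 1 (-1.10), and the value was -2.12 without kidney WT replicate 2 and -2.54 without kidney KO replicate 2. Of the neighbours in the order for Kel, neither kidney and small intestine nor small intestine and heart were called in edgeR. All 13 counts of Kel in the small intestine came from WT replicate 2.

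Epb42 was also far highest in the spleen, with a trace in the kidney. It had 61.0 TPM in the spleen, 0.511 ± 0.134 TPM in the kidney, 0.115 ± 0.105 TPM in the heart, 0.102 ± 0.0932 TPM in the small intestine, and 0.0199 ± 0.0278 TPM in the liver (SD, n = 4). In edgeR, the log2 difference between kidney and heart was 1.81 ± 0.69 (SE, adjusted p = 0.0501), and no pair of heart, small intestine, and liver was called with all libraries. These traces of Epb42 came from at most 16 counts in a heart, small intestine, or liver library, and single libraries decided the calls. The kidney to heart call was lost without kidney KO replicate 2 (1.74), heart WT replicate 1 (1.61), or heart KO replicate 1 (1.53), and the value was 2.46 without heart WT replicate 2 and 4.76 without heart KO replicate 2. Epb42 was called between heart and liver without liver WT replicate 2 (4.25), heart KO replicate 1 (2.28), or small intestine WT replicate 1 (2.03) or 2 (1.98). It was called between heart and small intestine without small intestine WT replicate 1 (3.24), and between liver and small intestine without small intestine WT replicate 2 (-2.19) or liver WT replicate 2 (-4.04).

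Slc4a1 had the highest kidney level of the members after Epb41. Its TPM was 17.8 and 7.36 in WT and 16.6 and 11.7 in KO kidney, a mean of 3.95% of the spleen level, against 85.8% for Epb41, 4.41% for Sptb, 0.837% for Epb42, 0.168% for Rhag, 0.257% for Ank1, 0.146% for Kel, and 0.0586% for Rhd. These percentages pool WT and KO, which differed in the spleen, so that they describe neither genotype alone. For Slc4a1 the mean was 185 TPM in WT and 493 TPM in KO spleen, against 12.6 TPM and 14.2 TPM in the kidney. In TPM, the kidney mean was 13.4 for Slc4a1 and 0.766 for Sptb. In the heart Slc4a1 had 0.281 TPM and 1.54 TPM in WT and 0.123 TPM and 0.159 TPM in KO, in the liver 0.0677 to 0.196 TPM, and in the small intestine no count in any library. In edgeR, the log2 difference of Slc4a1 was 4.15 between spleen and kidney (SE 0.38, adjusted p = 1.92e-06), 4.98 between kidney and heart (SE 0.42, adjusted p = 1.3e-06), and 5.85 between kidney and liver (SE 0.44, adjusted p = 5.95e-07). Without kidney WT replicate 2 the first was 4.13, and without heart WT replicate 2 the kidney to heart difference was 5.80, both called. The heart mean of 0.525 TPM rested on WT replicate 2 and was 0.188 ± 0.0829 TPM without it (SD, n = 3). Heart and liver, the next neighbours, were not called in edgeR (0.88, SE 0.45, adjusted p = 0.129), with 0.04 without heart WT replicate 2, and were called without heart WT replicate 1 (1.15, edgeR adjusted p = 0.0137). Against the small intestine, with 3 counts over its 4 libraries as the floor, the kidney level in CPM scaled to total counts was at least 959-fold higher.

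**Figure D4:**
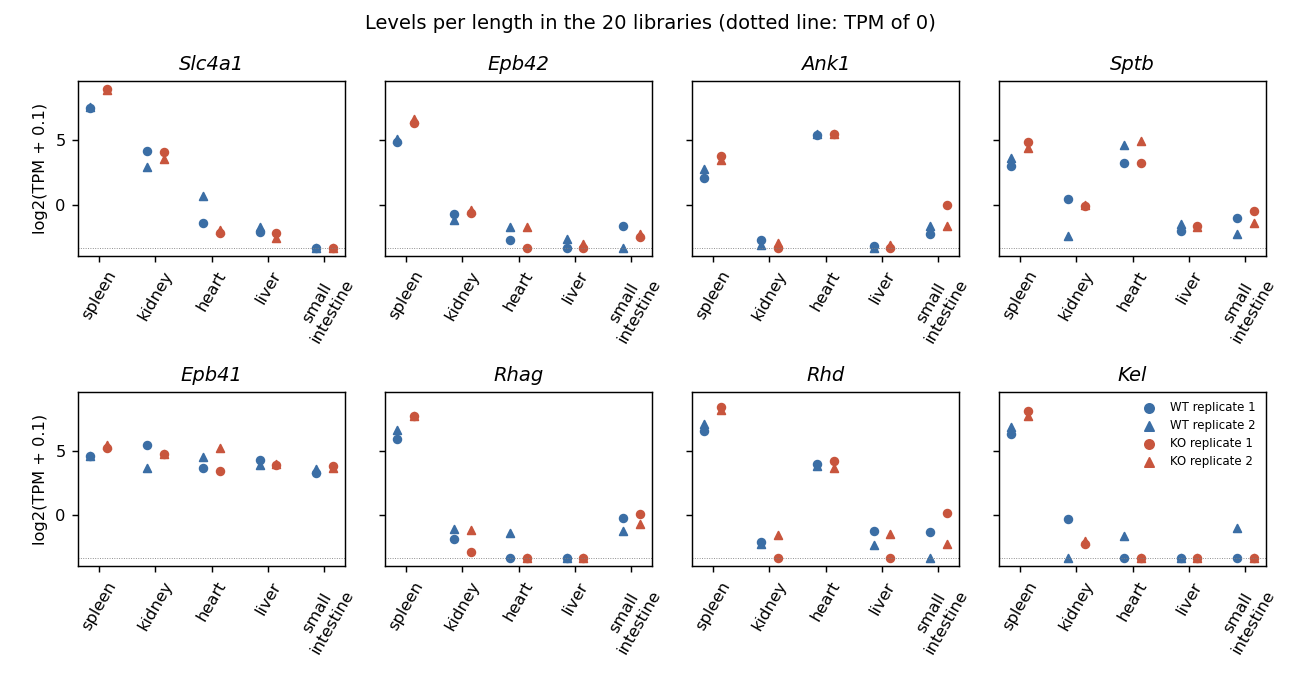
Log2(TPM + 0.1) of each gene (vertical axis) in the 20 libraries by organ, with the dotted line at a TPM of 0. Slc4a1 steps down from spleen to kidney, Ank1 in the heart lies above its spleen level, Sptb overlaps it, Rhd in the heart lies below its spleen level and above the other organs, Epb41 varies least between organs, and Epb42, Rhag, and Kel stand out in the spleen.

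To see whether Slc4a1 in the kidney went with the other red cell genes, its counts were divided by those of Epb42 in the same library, after adding 0.5 to each. The ratio was 31.6 and 19.2 in the WT kidney and 27.1 and 15.8 in the KO kidney. In the spleen it was 5.41 and 5.16 in WT libraries and 5.49 and 4.44 in KO libraries. All kidney libraries lay above all spleen libraries, with a difference of 2.15 on the log2 scale (4 libraries against 4, exact two-sided permutation p = 0.0286, adjusted over 4 organs 0.0381, with 0.05 as the threshold for these tests), and 0.0286 is the smallest p this design allows. The size of this difference depended on the reference gene. With Ank1 or Rhag in place of Epb42 it was 4.21 and 4.63 (exact permutation adjusted p = 0.0286 for both), from 0 to 6 counts of Ank1 and 1 to 10 of Rhag in a kidney library, so that the added 0.5 weighs on these sizes. With Sptb it was 0.28 (exact permutation adjusted p = 0.943). The heart ratios were 4.2 and 6.72 (WT) and 9 and 0.697 (KO), below the kidney by 2.63 (exact permutation adjusted p = 0.0381), from at most 16 counts of Epb42. The small intestine had no count of Slc4a1, so that the pseudocount sets its ratio and nothing is read from it. Adjusted over the other 3 organs, the exact permutation p was 0.0429 for the spleen and the heart and 0.0857 for the liver. The liver, with at most 4 counts of Epb42, lay below it by 1.74 with overlap (exact permutation adjusted p = 0.0857). With a pseudocount of 0.1 no exact permutation adjusted p was under 0.05. The difference was then 2.17 for the spleen (exact permutation adjusted p = 0.0571) and 2.05 for the heart (exact permutation adjusted p = 0.190).

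Against Alas2, which circulating young red cells also carry, the kidney did not stand apart from the spleen. Slc4a1 counts per Alas2 count were 2.38 and 0.908 in the WT kidney, 2.04 and 0.822 in the KO kidney, and 1.56 to 2.08 in the spleen libraries, so that both organs overlapped (log2 difference -0.29, exact permutation adjusted p = 0.457). In the heart libraries the same ratio was 0.00464 to 0.0389, with 36.7 to 80.6 TPM of Alas2 there and 15.2 to 29.0 TPM in the kidney. Summed globin TPM was 4016 to 5151 in the kidney and 3972 to 14280 in the heart. Slc4a1 had 0.525 ± 0.677 TPM in the heart and 13.4 ± 4.81 TPM in the kidney (SD, n = 4). The part of blood in these values was not tested.
Genes of the intercalated cells were highest in the kidney. The list does not separate the acid-secreting cells from other intercalated cells. All 12 of the list had their highest mean TPM there, with a sum of 1229 TPM and 613 TPM in WT and 895 TPM and 816 TPM in KO, and none of the 12 was at 0 in a kidney library. In KO against WT kidney, 8 of the 12 had a positive and 4 a negative log2 fold change, with a median of 0.07, and none was called in edgeR or DESeq2. Atp6v1g3 (a proton pump subunit) had 216 TPM, Atp6v0a4 (another) 176 TPM, Rhcg (the ammonia channel of the collecting duct and a relative of Rhag) 115 TPM, Slc26a4 (pendrin) 75.5 TPM, and Foxi1 (the transcription factor of these cells) 19.7 TPM. In the spleen the list summed to 1.98 to 3.56 TPM, with Foxi1 at 0 in every library. Counts per gene cannot tell the kidney transcript of Slc4a1 from that of red cells.

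**Figure D5:**
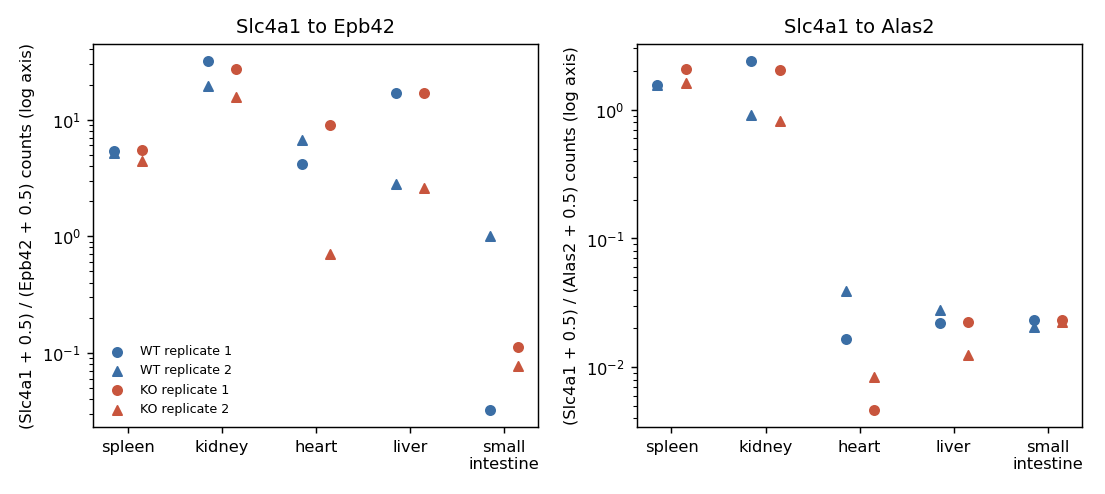
Counts of Slc4a1 divided by those of Epb42 (left) and of Alas2 (right) in each library, after adding 0.5, on log axes. In the left panel the kidney libraries, at 15.8 to 31.6, lie above the spleen libraries. In the right panel kidney and spleen overlap, with heart and liver far below. The small intestine had no count of Slc4a1, so that the added 0.5 sets its points.

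Ank1 was higher in the heart than in the spleen, and Sptb was not called between them. Ank1 had 42.3 TPM and 45.0 TPM in WT and 44.0 TPM and 45.0 TPM in KO heart, against 4.17, 6.61, 13.8, and 11.2 TPM in the spleen in the same order. No heart library overlapped a spleen library. Within the heart, CPM after TMM spread more than TPM, with 244 CPM and 204 CPM in WT and 275 CPM and 190 CPM in KO, lower in both libraries numbered 2. In edgeR, Ank1 was lower in the spleen than in the heart, with a log2 difference of -3.06 (SE 0.48, adjusted p = 9.28e-05). It was lower still in the small intestine, with 0.357 ± 0.355 TPM, the kidney, with 0.0229 ± 0.0208 TPM, and the liver, with 0.00698 ± 0.00828 TPM (SD, n = 4), and kidney and liver were not called. Small intestine KO replicate 1, the library with heart muscle transcripts, had 0.884 TPM of Ank1, against 0.108 to 0.221 TPM in the others. The part of heart transcripts in this value was not tested. In GENCODE, 13 of 17 transcripts of Ank1 are protein coding, and 3 of these, as the short ankyrin of muscle does, start near the 3′ end of the gene, at 23139030, 23139105, and 23139277 of chromosome 8. The counts per gene do not show which transcripts were used.

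Sptb had 9.42 TPM and 24.4 TPM in WT and 9.23 TPM and 30.8 TPM in KO heart, against 17.3 ± 9.14 TPM in the spleen (SD, n = 4). The heart libraries split by replicate number and not by genotype, and both libraries numbered 2 were sequenced more deeply (36090637 and 41763236 counts against 17959542 and 15897446) and carry a tag in the column names of the count file that no other library has. The meaning of the tag is not stated in the sources used here. With WT and KO pooled, spleen and heart were not called in edgeR for Sptb (log2 difference -0.74, SE 0.51, adjusted p = 0.234). The pooled difference was -0.09 by TPM and 0.04 by CPM, so that its direction depends on the scaling. It also averages the genotypes, since by mean TPM the heart lay above the spleen in WT and below it in KO. Spleen libraries had 7.96 TPM and 12.1 TPM in WT and 28.4 TPM and 20.9 TPM in KO, and overlapped the heart libraries in both genotypes. No pair of kidney, small intestine, and liver, each with 0.0827 to 1.26 TPM, was called with all libraries. Without kidney WT replicate 2, Sptb was called higher in the kidney than in the liver and the small intestine (1.29 for both), and without small intestine WT replicate 1 it was called between kidney and small intestine (1.4). Tmod1, a partner of the lattice, had 129 ± 51.6 TPM in the heart against 6.14 ± 2.79 TPM in the spleen (SD, n = 4). Other partners were lower in the heart than in the spleen by mean TPM. These were Dmtn (1.94 against 22.8), Add1 (31.8 against 66.4), Add2 (0.0584 against 14.5), Add3 (23.3 against 105), and Tpm3 (28.7 against 146).

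Rhd differed from its partner Rhag in the heart. It had 16.1 TPM and 14.3 TPM in WT and 18.4 TPM and 12.5 TPM in KO heart, from 187 to 294 counts, where Rhag had 0, 9, 0, and 0 counts. Its heart level was 7.08% of the spleen level with WT and KO pooled. The mean of Rhd was 113 TPM in WT and 320 TPM in KO spleen, against 15.2 TPM and 15.4 TPM in the heart. The log2 difference of Rhd was 2.97 between spleen and heart (SE 0.58, edgeR adjusted p = 0.000589) and 5.80 between heart and liver (SE 0.73, edgeR adjusted p = 1.6e-05). The liver had 0 to 8 counts of Rhd, and the latter value was 8.35 without liver KO replicate 2, again called. No exon base of Rhd is shared with another gene of the table. Small intestine, liver, and kidney had 0 to 16 counts of Rhd and no pair of them was called.

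Epb41 varied least between organs, with 32.2 ± 9.53 TPM in the spleen, 27.6 ± 12.5 in the kidney, 20.9 ± 12 in the heart, 16.3 ± 2.21 in the liver, and 12.2 ± 1.89 in the small intestine (SD, n = 4). Of the 10 pairs of organs, only liver and small intestine were called in edgeR, with a log2 difference of 1.05 (SE 0.27, adjusted p = 0.00516), and spleen and small intestine (0.76, adjusted p = 0.0287), kidney and small intestine (0.90, adjusted p = 0.0131), and heart and small intestine (0.70, adjusted p = 0.0390) stayed under the fold threshold. These calls of Epb41 lie at the threshold, since liver and small intestine fell under it without small intestine WT replicate 1 (0.91) or liver KO replicate 2 (0.99), and kidney and small intestine were called without small intestine WT replicate 2 (1.02) or kidney WT replicate 2 (1.06). The place of the liver depends on the scaling, since the log2 difference between spleen and liver was 0.98 by TPM and -0.29 in edgeR, and the signs between kidney and liver, heart and liver, and spleen and kidney flipped too. In the heart, Epb41 split by replicate number as Sptb did, with 12.5 TPM and 10.9 TPM in the libraries numbered 1 and 23 TPM and 37.0 TPM in those numbered 2.

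The genes most like Slc4a1 over the 20 libraries, by Pearson's r of log2(TPM + 0.1) among 22842 genes with a TPM over 1 in at least 2 libraries, were Ift80 (0.97), Hs6st2 (0.97), Gm6213 (0.95), Atp1b3 (0.95), and Gm29683 (0.94). Those most like Epb42 were Prim2 (0.98), Coch (0.98), D630008O14Rik (0.98), Eomes (0.98), and Btnl10 (0.97). Among the members, r was highest between Epb42 and Kel (0.96), Epb42 and Rhag (0.95), Rhag and Kel (0.95), Slc4a1 and Epb42 (0.92), and Ank1 and Sptb (0.92). It was lowest between Ank1 and Epb41 (0.23) and between Slc4a1 and Ank1 (0.24). These values are a description over libraries that share organs, so that the 5 organ means set most of r.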

How the data were processed

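Per the labels and the methods, mRNA was captured from total RNA and sequenced with a stranded mRNA library kit, and the authors trimmed reads with cutadapt, mapped them with HISAT2 2.1.0 to mm10, and deposited raw counts per gene from featureCounts 2.0.1 on Ensembl exons of GRCm38. The methods state reverse-stranded counting of read pairs, whereas the command stored in the deposited count file holds neither option, so mates may count separately and antisense genes cannot be told apart. The file also gives a merged exon length for each gene (other than a measured value). Replicates were not pooled.

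Counts were fitted over all genes in each organ separately, in R 4.3.3 with edgeR 4.0.16 (TMM, filterByExpr, robust quasi-likelihood test). Called means a Benjamini-Hochberg adjusted p below 0.1 together with more than a 2-fold change, the thresholds of the methods. Organ pairs and interactions came from 1 fit of 10 groups. SEs were derived from each log2 fold change and its F statistic. TPM was computed from counts and exon lengths for levels between genes and organs. CPM compares genotypes within an organ, and its TMM factors moved the spleen by -0.08 (log2, KO minus WT). Where CPM is compared between organs, it was scaled to total counts without TMM. Permutation tests were exact and two-sided (scipy 1.17.1), with an adjusted p threshold of 0.05, and adjusting them over 3 organs was added after seeing the data. The fits were tested on simulated counts, in which changed genes had ample counts and the spread was below that of each organ here. This checks the code and not how often calls are wrong in these data.

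The members and the 16 gene lists were chosen with earlier results of these data known. The list of other membrane genes leaves out 2 genes that are not reported here. Named genes were all members, up to 4 genes of a list with the highest TPM or the largest or smallest fold change in the spleen (for other membrane genes, all called and up to 12 by TPM), and the 5 genes most like Slc4a1 and Epb42. The intercalated cell genes in the kidney, and Tmod1 and the other partners of the lattice in the heart, were chosen after their values were seen. Total counts had a median of 28513950 per library, and floors of 3 counts cover counting error only. The alternatives were DESeq2 1.42.0, its size factors, no filter or a minimum of 10 counts, an adjusted p below 0.05, no fold threshold, 1 model for the 20 libraries, a block for the replicate number, other pseudocounts and reference genes, and each library left out. Bisulfite data were not used here.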

Additional observations from a re-analysis of the deposited data

Results flagged for a closer look

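Slc4a1 was flagged because it was lower in both KO heart libraries than in any WT heart library by CPM (log2 fold change -2.61), opposite to its direction in the spleen. The difference of the effects was tested in the fit of all libraries and had an edgeR adjusted p of 1.0, with an unadjusted p of 0.000147. In the heart Slc4a1 entered the test only through its WT libraries, and with a minimum of 10 counts in every library it was not tested. The heart value rested on WT replicate 2, which held 97 counts, and was -1.17 ± 1.62 (SE) without it. The part of the spleen or blood cell transcripts of that library in this value was not tested.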

How the results depend on the processing

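Of the 8 members, 3 were called in the spleen with the main settings. With the share of all genes called higher in brackets (0.218% with the main settings), the count was 7 with DESeq2 (1.29%), 7 with no filter (0.867%), 6 with a minimum of 10 counts (0.622%), 0 at an adjusted p under 0.05 (0%), and 0 in 1 fit of all 20 libraries (0%). It ranged from 0 (without KO replicate 2, 0%) to 7 (without WT replicate 2, 1.32%) with 1 library left out. In the other organs together the count was 0, and from 0 to 1 with 1 library left out (Sptb, without kidney WT replicate 1, where 16.1% of all genes were called). For the difference of KO effects between organs it was 0, 4 with no filter (0.546% to 1.59% of all genes), and from 0 to 1 with 1 library left out (Slc4a1 against the heart, without heart WT replicate 1, 0.00403%). Among organ pairs 52 of 80 were called (46.8% of all genes over the pairs), and from 50 to 57 with 1 library left out (43.3% to 45.7%).
With a pseudocount of 0.1, the log2 difference of the Slc4a1 to Epb42 ratio between kidney and spleen, heart, and small intestine was 2.17, 2.05, and 9.15, with an adjusted p of 0.0571 for the spleen and 0.190 for the heart, and the liver passed the threshold of 0.05 with 2.24 at a pseudocount of 1. The small intestine values are set by the pseudocount and test nothing. With Sptb or Alas2 in place of Epb42, the liver passed with 5.23 and 6.08. The spleen did not pass with 0.28 (Sptb) and reversed to -0.29 (Alas2). With Ank1 or Rhag in place of Epb42, the liver had 5.21 and 2.82. Liver libraries held 0 to 4 counts of Ank1 and none of Rhag. The pseudocount thus weighs on these values, and nothing is read from them. With 1 library left out the differences ranged from 1.98 to 2.32 (spleen), 1.83 to 3.06 (heart), 1.28 to 2.18 (liver), and 6.79 to 8.44 (small intestine), where 3 libraries against 4 cannot give an exact permutation p below 0.0571. With WT and KO pooled, the level of Ank1 in the heart was 494% of that in the spleen by TPM and 470% by CPM scaled to total counts. The cause of these shifts was not tested.
With the replicate block, 4 members were called in the spleen (0.223% of all genes), as Rhag joined with a log2 fold change of 1.62 (edgeR adjusted p = 0.0772), and no call of a member in another organ or of an interaction changed. Same-numbered libraries deviated together with a correlation of 0.01 in the spleen, 0.13 in the kidney, 0.37 in the heart, 0.04 in the liver, and 0.57 in the small intestine. No source used here says what a number stands for. In the heart, both libraries numbered 2 were deeper and carry a tag in their column names, so that a batch cannot be told apart from the number there, and with the block Slc4a1 was at -2.49 ± 0.89 (SE, edgeR adjusted p = 1.0) in the heart. With 2 libraries in a group, the spread between libraries limits precision. Members with few counts in an organ give no usable fold change between WT and KO there.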
